A study of Mus musculus with 7 samples.

Results

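Complement is a cascade of secreted proteases and binding proteins that marks cells and microbes with fragments of C3 and C4, attracts leukocytes and can assemble a pore in membranes. It can be started by antibody and C1 (the classical route), by sugar-binding proteins with MASP proteases (the lectin route), or by spontaneous turnover of C3 amplified by factor B and factor D (the alternative route). The liver makes most plasma complement, and fibroblasts and macrophages make components locally, where soluble and membrane-bound inhibitors keep the cascade in check.

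The 8 genes described here were chosen by symbol as complement components and regulators, and stand in the deposited table as C2, C3, C4B, CFB, CFD, SERPING1, CD59A and MASP1. They are 8 of 24908 symbols kept from that table, each with 1 entry, and the rule that lists them uses no measured value. From here on they carry their mouse spelling: C2, C3, C4b, Cfb, Cfd, Serping1, Cd59a and Masp1. Genes were tested where 2 or more libraries reached 1 FPKM, which 7 of the 8 did and Cfd did not.

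Poly-A RNA was sequenced from cells sorted as Pdgfra-low and CD81+ from mouse intestinal mesenchyme, a fibroblast population beneath the crypts. The groups were wildtype controls (n = 3), Apc knockout mice at day 4 (n = 2) and Apc knockout mice at day 6 (n = 2) after the deletion. The knockout was of floxed Apc alleles (Apc flox/flox) by Villin-CreERT2, whose Villin promoter restricts the Cre to epithelium, so Apc, a tumour suppressor that restrains Wnt signalling, was targeted in epithelium and not in the sorted fibroblasts. Apc transcript in the sorted cells (2.46 to 2.69 FPKM in controls, 2.22 to 3.29 FPKM in knockouts) therefore does not check the labels. Age, sex, strain, the dosing that activates the Cre, and whether the wildtype mice carried Cre or were dosed are not given in the sources used here. The sources do not say that each library is a separate animal or that animals were not pooled. The p-values here cover only the spread between libraries, which may be technical. For each gene that spread was estimated partly from other genes at similar levels (3.78 prior and 4 residual degrees of freedom, limma).

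Values are FPKM (fragments scaled by transcript length and by the size of the library), which allow levels of different genes to be set side by side. Columns fall by their names into a day 4 set (1 control and both day 4 knockouts) and a day 6 set (2 controls and both day 6 knockouts). The column taken as day 6 knockout replicate 2 carries no day and was placed by its ending and by elimination. Day 4 knockout replicate 2 stood apart: the summed FPKM of 10 macrophage and dendritic cell markers was 17.4 there and 106 to 257 in the other 6 libraries, and that of 5 B and plasma cell markers was 39.5 against 239 to 2650. Of the sort markers, Cd81 was 32.4 FPKM in it and 94.8 to 169 FPKM in the others, and Pdgfra was 134 FPKM in it and 54.3 to 111 FPKM in the others. Summed telocyte markers (6 genes) were 147 FPKM in it and 67.2 to 113 FPKM in the others. Of these genes, F3 was 55.9 FPKM in it, within the range of the others, and the rest were highest in it. The sort markers and the trophocyte genes Grem1, Rspo3, Wnt2b, Cd34 and Ackr4 were detected in all 7 libraries. Cd34 was 454 to 509 FPKM in controls and 169.5 to 353 FPKM in the 4 knockouts, and Wnt2b was 22.4 to 38.2 FPKM against 10.5 to 19.2 FPKM. Pdgfra went the other way, with 54.3 to 61.3 FPKM in controls and 76.5 to 134 FPKM in the knockouts. Grem1 was 164 to 195 FPKM in controls, 143 and 101 FPKM at day 4, and 501 and 267 FPKM at day 6. Cd81, Ackr4 and Rspo3 overlapped between controls and knockouts.

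Upstream sequence from RefSeq (build GRCm38.p6) was matched for 3 members, C3, Cfd and Cd59a. The 250 bases before the start of C3 and of Cfd are shown because these genes lie at opposite ends of the range of levels below, with C3 among the most abundant transcripts and Cfd at or near 0. Capitals mark the only motif match in the 2 windows, to the C/EBP motif TTGCNNAA, which in C3 (chr17:57228137-57228386, minus strand) reads TTGCGAAA from 45 to 38 bases before the start. In Cfd (chr10:79890603-79890852, plus strand) no searched motif matched, and in Cd59a the interferon response core matched once, as GAAAGGGAA from 187 to 179 bases before the start.
C3: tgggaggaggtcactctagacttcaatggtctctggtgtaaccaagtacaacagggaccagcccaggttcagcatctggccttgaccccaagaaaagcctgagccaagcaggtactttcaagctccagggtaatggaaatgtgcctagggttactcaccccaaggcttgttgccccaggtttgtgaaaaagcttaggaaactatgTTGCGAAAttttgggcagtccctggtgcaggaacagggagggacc
Cfd: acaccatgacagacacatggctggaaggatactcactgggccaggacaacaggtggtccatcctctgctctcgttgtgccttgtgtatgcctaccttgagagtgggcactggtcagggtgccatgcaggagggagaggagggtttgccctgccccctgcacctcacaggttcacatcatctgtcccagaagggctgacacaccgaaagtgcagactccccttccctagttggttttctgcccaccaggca

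The other motifs searched, on both strands, were the GAS element TTCNNNGAA, the interferon response core GAAANNGAA and the NF-kB consensus. Over 32851 promoters of the same length, 9.56% held the C/EBP motif, 7.02% the GAS element, 7.13% the interferon core and 7.25% the NF-kB consensus, where matches of different motifs may overlap. A match describes letters in a window and nothing about binding.

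Serping1, C3 and C4b were among the most abundant transcripts of these cells, Cfb was lower, C2, Masp1 and Cd59a lower still, and Cfd was listed at or near 0. Serping1, C3 and C4b ranked 18, 28 and 43 among 24908 symbols by their mean in the controls. Cfb ranked 268, C2 1714, Masp1 4867 and Cd59a 8812. The 8 genes together made up 0.985% to 1.46% of all FPKM in a library, lowest in day 4 knockout replicate 2 and highest in day 6 knockout replicate 1. Serping1 was above C3 in 7 of 7 libraries, C4b above Cfb in 7, Cfb above C2 in 7 and Masp1 above Cd59a in 7. The order of 2 neighbouring pairs varied: C3 was above C4b in 5 of 7 libraries and C2 above Masp1 in 6 of 7.

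**Figure D1:**
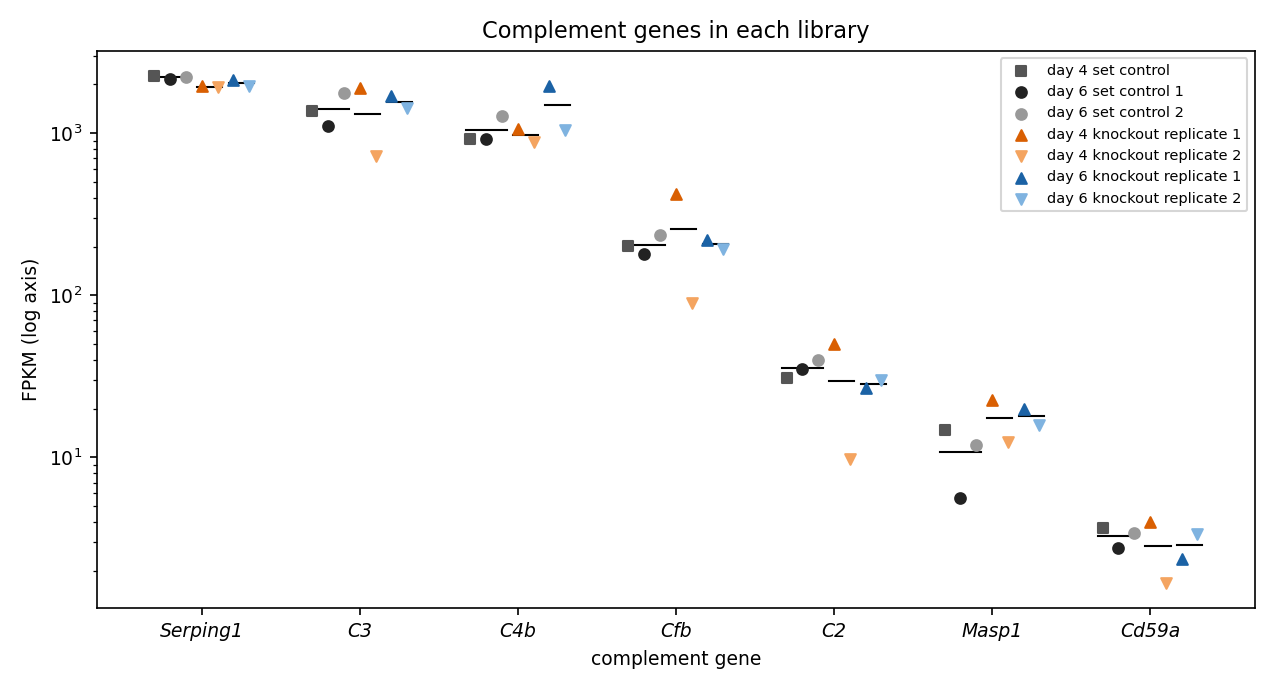
FPKM (log axis) of 7 complement genes in each library, with a symbol per library and a short line at each group mean (3 controls, 2 day 4 and 2 day 6 knockouts). Serping1 stays between 1938 and 2254 FPKM, while Cfb and C2 are highest in day 4 knockout replicate 1 and lowest in replicate 2. Cfd is not drawn because it is listed at 0 in 6 libraries.

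C3, the central protein on which all routes converge, was 1381 FPKM in the day 4 set control and 1115 and 1763 FPKM in the day 6 set controls. Day 4 knockout replicates 1 and 2 had 1892 and 729 FPKM, and the corresponding day 6 libraries had 1707 and 1428 FPKM. Mean and SD were 1420 ± 325 FPKM over controls (n = 3), 1311 ± 822 over day 4 (n = 2) and 1567 ± 197 over day 6 (n = 2), with the same n for the genes that follow. The day 4 knockouts thus held both the highest and the lowest value of the series, on either side of all 3 controls. Both day 6 knockouts lay within the range of the controls.

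C4b, the classical and lectin route component that joins C2 in the C3-cleaving enzyme, was 924, 924 and 1275 FPKM in the day 4 set control and the first and second day 6 set controls. At day 4 the knockouts, in order of replicate, had 1069 and 886 FPKM, and at day 6 they had 1957 and 1041 FPKM. Mean and SD were 1041 ± 203 FPKM over controls, 978 ± 130 over day 4 and 1499 ± 648 over day 6. Day 6 knockout replicate 1 was above every other library, and the other 3 knockouts overlapped the controls or lay just below them.

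C2, the protease that partners C4b, was 31.0 FPKM in the day 4 set control and 35.3 and 40.0 FPKM in the day 6 set controls. Knockout values were 49.9 and 9.76 FPKM at day 4, and 26.7 and 29.9 FPKM at day 6. Controls averaged 35.4 ± 4.49 FPKM, day 4 29.8 ± 28.4 FPKM and day 6 28.3 ± 2.29 FPKM. Day 4 knockout replicate 1 was the highest library and replicate 2 the lowest by a wide margin, and both day 6 knockouts lay slightly below the lowest control.

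Cfb, the protease of the alternative route and a paralog of C2, was 203 FPKM in the day 4 set control and 180 and 234 FPKM in the day 6 set controls. Among knockouts it had 425 and 89.4 FPKM at day 4, then 219 and 193 FPKM at day 6. Controls averaged 206 ± 27.1 FPKM, day 4 257 ± 237 FPKM and day 6 206 ± 18.3 FPKM. The pattern over libraries was that of C2, with the same highest and lowest library (Pearson r of log2 values 0.91 over 7 libraries, given as a description). On the RefSeq assembly Cfb and C2 are adjacent protein-coding genes on chromosome 17, with C4b nearby, while C3 lies elsewhere on that chromosome. Cfb stood at 5.10 to 9.16 times C2 within each library. C3 and Cfb also varied together (r = 0.91), as did C3 and C2 (r = 0.85), whereas C4b and C2 did so weakly (r = 0.19). These points share their libraries, and 1 library, day 4 knockout replicate 2, is the lowest in each.

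Cfd, factor D, is the protease that cleaves factor B in the alternative route and is an abundant adipocyte transcript. It was listed at 0 in 6 of 7 libraries and at 0.0367 FPKM in day 4 knockout replicate 2, so no change could be computed. A listed 0 need not mean absence, since the collagen Col1a1 is also listed at 0 in the day 4 set control and has 382 to 3618 FPKM in the other libraries. Of 7 adipocyte markers, Lep, Cidec and Retn were at 0 in every library, Adipoq was at most 0.0205 FPKM and Plin1 at most 0.0548 FPKM. Lpl and Fabp4, which other cells also express, carried the list, whose sum was 44.2 to 52.7 FPKM in controls, 43.6 and 55.9 FPKM at day 4, and 38.2 and 47.2 FPKM at day 6. These genes differed in opposite directions within that sum. Fabp4 was 3.16 to 6.68 FPKM in controls and 13.5 to 25.8 FPKM in knockouts. Lpl was 38.7 to 49.6 FPKM in controls and 17.8 to 39.4 FPKM in knockouts.

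Masp1, the gene of a lectin route protease and, through another splice form, of the activator of factor D, was 14.9 FPKM in the day 4 set control and 5.61 and 11.9 FPKM in the day 6 set controls. Knockouts of day 4 had 22.5 and 12.4 FPKM, those of day 6 had 20.0 and 16.0 FPKM. Controls averaged 10.8 ± 4.72 FPKM, day 4 17.5 ± 7.14 FPKM and day 6 18.0 ± 2.85 FPKM. Both day 6 knockouts and day 4 knockout replicate 1 lay above all 3 controls, and day 4 knockout replicate 2 lay among them. Controls varied most for this member, with a coefficient of variation of 43.8%.

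Serping1, the C1 inhibitor that blocks the C1r, C1s and MASP proteases, was 2254 FPKM in the day 4 set control and 2166 and 2233 FPKM in the day 6 set controls. Both day 4 knockouts were near each other, at 1946 and 1938 FPKM, and day 6 gave 2121 and 1966 FPKM. Mean and SD were 2217 ± 45.7 FPKM over controls, 1942 ± 5.69 over day 4 and 2043 ± 110 over day 6. All 4 knockouts were below all 3 controls, by a small amount. Its highest library was 1.16 times its lowest, and 0.707% of the 11735 genes tested had a narrower range on the log2 scale (0.22 for Serping1, median 0.74). The range of C2 (2.24) and of Cfb (2.24) was wider than that of 95.8% and 95.7% of genes.

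Cd59a, the membrane anchor protein that blocks assembly of the pore, was 3.66 FPKM in the day 4 set control and 2.76 and 3.40 FPKM in the day 6 set controls. Knockout libraries gave 3.98 and 1.69 FPKM at day 4, with 2.37 and 3.36 FPKM at day 6. Controls averaged 3.27 ± 0.463 FPKM, day 4 2.84 ± 1.62 FPKM and day 6 2.87 ± 0.700 FPKM. Groups overlapped, and day 4 knockout replicate 2 was again the lowest. Its paralog Cd59b was listed at 0 in 6 libraries and at 0.169 FPKM in the day 4 set control.

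None of the 7 tested members passed the threshold (adjusted p below 0.05 over 11735 genes, limma) in any comparison, and none had an unadjusted p below 0.05. Serping1 was the least variable member and Masp1 the one with the largest mean difference. The background, the share of all tested genes that passed, was 1.02% at day 4 against wildtype, 0.0426% at day 6, 0.162% with the days averaged and 0% for day 6 against day 4. The share of all genes with an unadjusted p below 0.05 was 18.6%, 7.26%, 13.8% and 11.5% in the same order. At these backgrounds a count of 0 of 7 does not set the members apart.

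At day 4 the log2 change of log2(FPKM + 1) was 0.69 (95% interval -0.22 to 1.59) for Masp1, -0.08 (-0.85 to 0.69) for C4b and -0.07 (-1.34 to 1.21) for Cfb. It was -0.19 (-0.78 to 0.40) for Serping1, -0.22 (-0.87 to 0.44) for Cd59a, -0.25 (-1.23 to 0.74) for C3 and -0.63 (-1.89 to 0.63) for C2. Serping1 itself ranged over only 0.22 across all libraries, so its interval reflects mostly the spread of other genes at similar levels. Without the intensity trend its unadjusted p was 0.236 (limma, adjusted p = 0.540). The smallest adjusted p was 0.391, for Masp1. As ratios of FPKM + 1 the intervals reached from 0.270 to 1.55 for C2 and from 0.395 to 2.31 for Cfb, so these data do not show that the levels were alike. The median of the 7 was -0.19, and that of all tested genes was -0.06. One member, Serping1, had groups that did not overlap, against 34.5% of all genes.

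The day 4 values turned on single libraries. Without day 4 knockout replicate 2 the log2 change became 0.49 for C2, 0.44 for C3, 1.05 for Cfb, 0.23 for Cd59a and 0.06 for C4b, each with the sign opposite to the value above and none past the threshold. Without day 4 knockout replicate 1 it was -1.75 for C2, which then passed (adjusted p = 0.0299), and -1.19 for Cfb (adjusted p = 0.0733). Over the alternatives run, the adjusted p of C2 at day 4 was 0.0299 at its smallest. Macrophage markers (257 FPKM) and B and plasma cell markers (2650 FPKM) were highest in day 4 knockout replicate 1 and lowest in replicate 2 (17.4 and 39.5 FPKM), and their part in the C2, Cfb and C3 values was not tested. Telocyte markers were highest in replicate 2 (147 FPKM), and their part was not tested either. In bulk RNA, fewer cells of a type and less RNA per cell cannot be told apart.

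At day 6 the log2 changes were 0.77 (95% interval -0.13 to 1.68, adjusted p = 0.733) for Masp1 and 0.47 (-0.30 to 1.25) for C4b. They were 0.16 (-0.82 to 1.15) for C3, 0.01 (-1.27 to 1.28) for Cfb, -0.12 (-0.71 to 0.47) for Serping1, -0.15 (-0.80 to 0.51) for Cd59a and -0.31 (-1.57 to 0.95) for C2. The median was 0.01, against -0.01 over all genes. The groups did not overlap for 3 of 7 members (Masp1 above, C2 and Serping1 below the controls), where 25.9% of all genes did not overlap. The C4b value rested on 1 library: leaving out day 6 knockout replicate 1 gave 0.02, and leaving out replicate 2 gave 0.93. Epithelial markers summed to 23.6 FPKM in replicate 1 and to between 1.5 and 7.89 FPKM in the other 6 libraries, and their part in the C4b value was not tested. Against the 2 controls of the day 6 set alone, Masp1 was higher by 1.19 in day 6 knockout replicate 1 and by 0.88 in replicate 2. Against the single control of the day 4 set it was higher by 0.57 in day 4 knockout replicate 1 and differed by -0.24 in replicate 2.

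**Figure D2:**
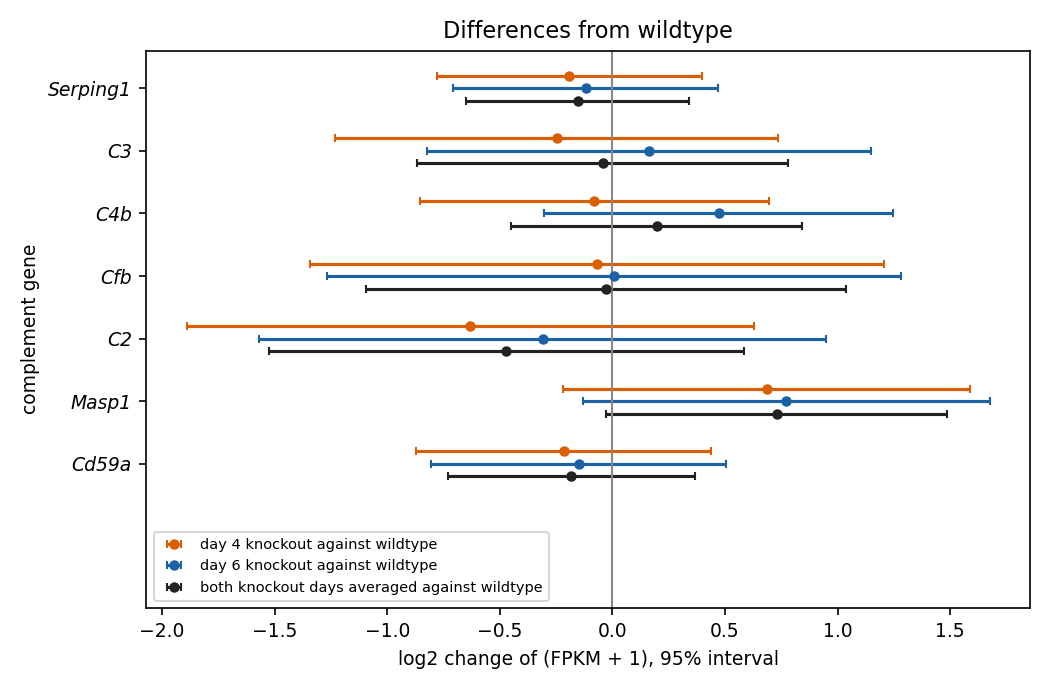
Log2 change of (FPKM + 1) from wildtype for 7 complement genes at day 4, at day 6 and with both days averaged, with 95% intervals from limma (3 controls, 2 libraries per day). Every interval includes 0, those of C2 and Cfb are the widest, and Masp1 lies farthest to the right.

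With both days averaged, Masp1 stood at 0.73 ± 0.33 (SE, interval -0.03 to 1.48, adjusted p = 0.377), higher in 3 of 4 knockouts than in any control. Serping1 stood at -0.16 ± 0.21 (interval -0.65 to 0.34, adjusted p = 0.814), with all 4 knockouts below all 3 controls. That pattern of 4 below 3 was seen in 6.58% of all genes, and the opposite one, which no member showed, in 5.32%. The day 4 and day 6 comparisons use the same 3 controls, so their values are not independent. The other members lay between -0.47 (C2) and 0.20 (C4b).

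Between the knockout days, all 7 members were higher at day 6 than at day 4, by 0.07 to 0.55 on the log2 scale. Of all genes, 56.5% had a positive value. Summed FPKM was 377325 and 372898 in the day 4 knockouts, and 417982 and 396360 in the day 6 knockouts. The fit did not equalize these sums, and their part in the member values was not tested. With quantile normalization Cfb and Cd59a were slightly negative. All day 4 knockouts are in the day 4 set and all day 6 knockouts in the day 6 set. Day and set therefore cannot be told apart in this comparison. The smallest adjusted p was 0.635, for C4b. Without day 4 knockout replicate 2, C2, C3, Cfb, Cd59a and Masp1 changed sign, to values from -1.04 to -0.28. Groups did not overlap for 1 of 7 members (Serping1, whose closest libraries were at 1966 and 1946 FPKM), against 42.6% of all genes.

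The other 47 complement genes of a list fixed with the members ranged from abundant proteases to components at 0, and 24 of them passed the filter. C1s1, the protease that cleaves C4 and C2, and C1ra, which activates it, were 619 ± 30.8 FPKM (SD, n = 3) and 404 ± 63.5 FPKM in controls. The scavenger receptor collectin Colec12 was 255 ± 23.9 FPKM. Mbl1, Mbl2 and Fcnb, recognition proteins of the lectin route, were listed at 0 in every library. Properdin (Cfp), which stabilizes the alternative route enzyme, was 1.93 ± 0.423 FPKM.

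In the terminal route C7 was 233 ± 208 FPKM in controls, from 81.0 to 470 FPKM over the 7 libraries, and C6 was 5.30 ± 0.494 FPKM. C8g was at most 0.459 FPKM, and C8a, C8b and C9, the remaining pore proteins, were listed at 0 in every library. C6 was 10.3 and 16.7 FPKM in the day 4 knockouts against at most 6.94 FPKM in every other library, a log2 change of 1.17 ± 0.23 (SE) that narrowly missed the threshold (adjusted p = 0.0606). It passed with the filter at a mean of 3 FPKM (limma, adjusted p = 0.0491) and with quantile normalization (0.0479). Without day 4 knockout replicate 1 the log2 change was 1.49. Under the remaining alternatives, among them controls of the same harvest set, C6 did not pass.

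The leading regulators had higher levels than the receptors. Clusterin (Clu), which binds the forming pore, was 78.3 ± 32.2 FPKM over controls, 37.0 ± 11.4 FPKM over day 4 and 66.6 ± 53.5 FPKM over day 6. Cfhr2 was 18.3 ± 12.3 FPKM, 9.60 ± 1.11 FPKM and 36.0 ± 10.4 FPKM in the same order. Its controls differed by set, with 5.02 FPKM in the day 4 set and 29.2 and 20.8 FPKM in the day 6 set. The day 4 knockouts (8.82 and 10.4 FPKM) were thus above the control of their own set. Cd55, the decay accelerating factor on membranes, was 115 ± 38.2 FPKM in controls, 58.8 ± 5.20 FPKM over day 4 (log2 change -0.91 ± 0.33, adjusted p = 0.213) and 88.3 ± 39.9 FPKM over day 6. Cr1l, the rodent membrane inhibitor Crry, had 32.9 to 52.7 FPKM over the 7 libraries. Cd55b was lower, with 1.74 FPKM in the day 4 set control and 6.11 and 5.07 FPKM in the day 6 set controls. Its day 4 knockouts had 0.704 and 0.603 FPKM, and its day 6 knockouts had 2.99 and 7.01 FPKM. The day 4 log2 change of Cd55b was -1.57 ± 0.44 (SE, limma, adjusted p = 0.132). The anaphylatoxin receptor C5ar1 was 3.71 ± 0.978 FPKM, and the integrin subunits Itgb2 and Itgam, leukocyte genes, were 2.56 ± 0.962 FPKM and 0.888 ± 0.227 FPKM.

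No listed gene passed in any of the 4 comparisons (limma, 0 of 24). The unadjusted p was below 0.05 for 4 at day 4, 0 at day 6, 3 with the days averaged and 4 between the days. Over all genes that share was 18.6%, 7.26%, 13.8% and 11.5% in the same order. The median log2 change of the listed genes was -0.38 at day 4 and 0.42 at day 6, against -0.06 and -0.01 over all genes. These changes are from controls of both sets pooled, so differences between the sets enter them. C4a, at -0.92 and 0.89, had 43.5 FPKM in the day 4 set control and 50.4 and 41.1 FPKM in the day 4 knockouts. The part of the sets in these medians was not tested. The summed level of the 16 recognition and protease genes was 877 FPKM in day 4 knockout replicate 2 and 1520 to 1780 FPKM in the other 6 libraries. C1qa, which macrophages make, was 2.67 FPKM in that library and 10.9 to 57.4 FPKM in the others.

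**Figure D3:**
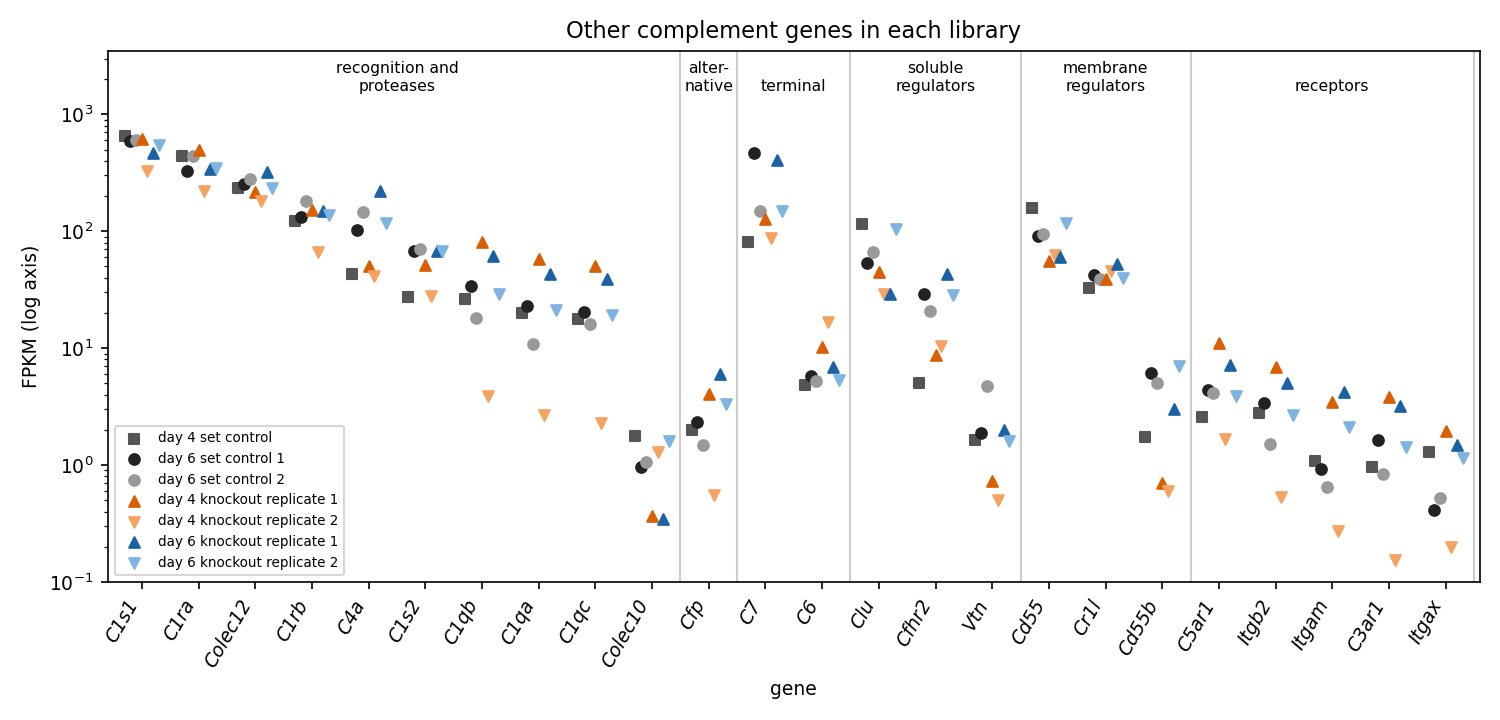
FPKM (log axis) of the 24 other complement genes that passed the filter, grouped by role, with a symbol per library as in the plot of the 8 genes. C1s1 is the most abundant, at 331 to 653 FPKM, the receptors lie well below C1s1 and C1ra, and day 4 knockout replicate 2 is lowest for C1qa, C1qb and C1qc.

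Ratios between some closely related genes differed between the harvest sets. C4b and C4a encode near-identical proteins, and C4b was 21.2, 21.2 and 21.5 times C4a in the day 4 set (control, knockouts 1 and 2). It was 8.94 and 8.67 times C4a in the day 6 set controls and 8.82 and 8.80 times in the day 6 knockouts. The column with no day in its name, at 8.80, thus stood with the day 6 set. C4b itself overlapped between the sets, while C4a did not, with 41.1 to 50.4 FPKM in the former and 103 to 222 FPKM in the latter.

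A split between the sets was also found in 3 further pairs, picked after their values were seen. Cd55 was 78.3 to 104 times Cd55b in the day 4 set and 15.0 to 20.1 times in the day 6 set. C1ra was 3.25 to 3.61 times C1rb and 2.32 to 2.54 times, in that order of sets. C1s1 over C1s2 was also higher in the control than in the knockout libraries of each set, a difference that was not tested. It was 23.7 in the single day 4 set control and 11.9 in both knockouts of that set. In the day 6 set it was 8.79 and 8.70 in the controls against 6.89 and 8.12 in the knockouts. Cfb over C2, a more distant pair, overlapped between the sets. How fragments shared by such pairs were counted is not given in the sources used here, its part in these ratios was not tested, and values of C4a, C4b and the other pairs are uncertain to that extent.

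**Figure D4:**
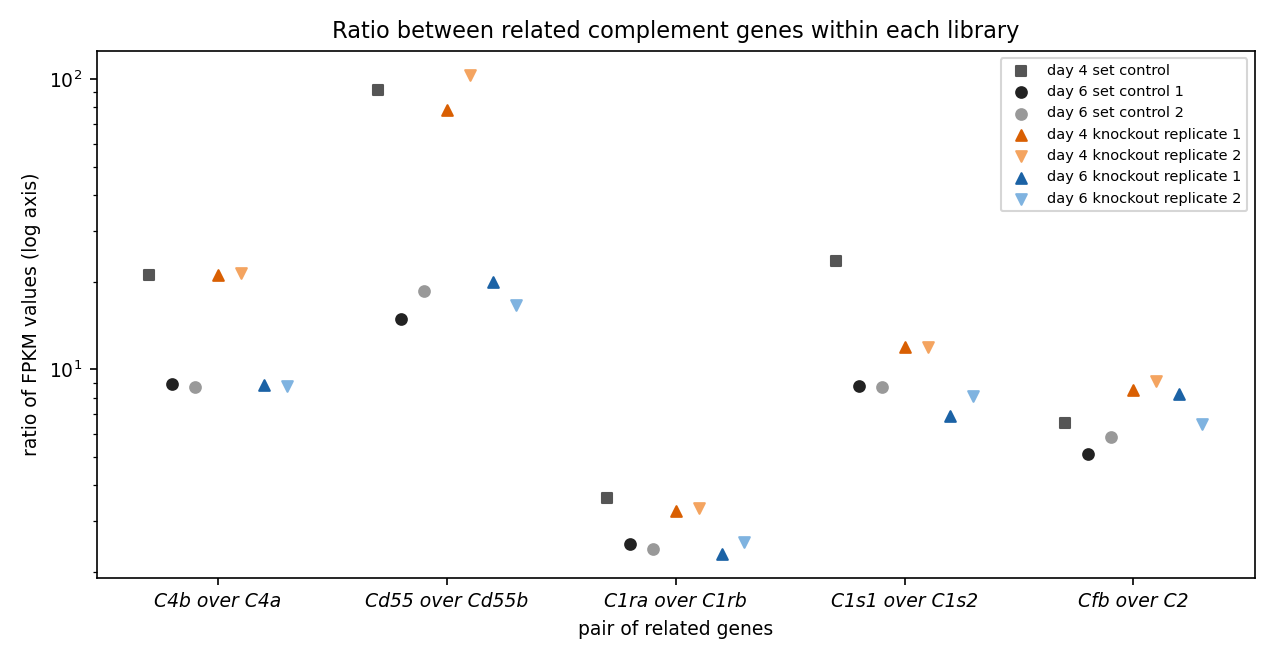
Ratio of FPKM values within each library (log axis) for 4 pairs of closely related complement genes and for Cfb over C2, with a symbol per library. In the 4 pairs the 3 libraries of the day 4 set lie above the 4 of the day 6 set, the C1s1 over C1s2 ratio of the day 4 set control lies above that of its knockouts, and C4b over C4a is 21.2 to 21.5 against 8.67 to 8.94.

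C3, Cfb and Serping1 are classed as acute phase genes in the liver, and a few other acute phase genes passed the threshold in these cells. Of 17 listed, 9 were tested and 3 rose at day 4: Serpina3m (log2 change 4.25 ± 0.37, adjusted p = 0.0101), Serpina3n (2.57 ± 0.27, adjusted p = 0.0186) and Lrg1 (1.72 ± 0.29, adjusted p = 0.0443). At day 6, 1 of the 9 rose, Serpina3m (3.56, adjusted p = 0.0372). The other 6 did not pass at day 4, where 1.02% of all tested genes passed, against 0.0426% at day 6. The day 4 calls were lost with no filter on low values (adjusted p = 0.0830, 0.103 and 0.137 in the order above), with controls of the same harvest set (0.0922, 0.169 and 0.351) and without the second day 6 set control (0.0583, 0.127 and 0.127). Over 14 alternatives the day 4 call held in 11 for Serpina3m, 9 for Serpina3n and 3 for Lrg1, and the day 6 call of Serpina3m held in 4 (adjusted p up to 0.521, without day 6 knockout replicate 1). All 9 were positive at both days, with medians of 1.92 and 1.54, where 43.1% and 49.1% of all genes were positive, with medians of -0.06 and -0.01. Blood endothelial markers summed to 5.60 to 13.7 FPKM in controls, 20.2 and 27.9 FPKM at day 4, and 9.93 and 14.4 FPKM at day 6. Smooth muscle and pericyte markers summed to 169 to 188 FPKM in controls and 60.3 to 145 FPKM over the 4 knockouts. Rgs5 carried that sum, with 135 to 147 FPKM in controls and 28.3 to 106 FPKM in knockouts. Myh11, Des, Cnn1 and Cspg4 overlapped between controls and knockouts. The part of either marker list in the acute phase values was not tested. The acute phase list holds Serpina3m and Serpina3n, already known from these data to rise when the list was fixed. Whether the members differ from these genes in response was not tested. Of 26 cytokines, receptors and transcription factors linked to complement gene expression, 25 were tested and none passed at day 4 or day 6. An unadjusted p below 0.05 was found for 6 and 1 of them, against 18.6% and 7.26% of all genes. Of the 25, 10 were positive and 15 negative at day 4, and 15 were positive and 10 negative at day 6. Irf1, an interferon-induced activator, was 376 to 415 FPKM in controls, 240 and 260 FPKM at day 4 and 195 and 339 FPKM at day 6. Its log2 change was -0.67 at day 4 and -0.63 at day 6 (limma, adjusted p = 0.224 and 0.668). Irf1 was named after its values were seen.

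The genes most like each member over the 7 libraries, by Pearson r of log2(FPKM + 1) among tested genes that are not members, were Ramp3 (r = 0.99) and Stmn1 (0.98) for C2. They were Clec7a (0.98) and Lmo2 (0.97) for Cfb, and Jun (0.98) and Pi16 (0.97) for C3. For C4b they were Adgrd1 (0.98) and Vldlr (0.97), for Masp1 Atg13 (0.96) and Gm16062 (0.96), for Cd59a Tnfrsf18 (0.98) and Pik3cd (0.98), and for Serping1 Svopl (0.93) and Podn (0.93). Each is the highest of 11735 coefficients over 7 points, so it is a description of these libraries.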

How the data were processed

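RNA was sequenced from 7 libraries (3 wildtype, 2 day 4 and 2 day 6 knockouts). The values are FPKM, made and deposited by the authors with 1 column per library. The submitters' processing notes name kallisto 0.46.1, DESeq2 1.40.1 and mm9 without roles, so the step that made the FPKM is not given in the sources used here. No counts are given. Ratios of low FPKM put relative depth at 0.747 to 0.824 of the set's control in the day 4 knockouts and 0.883 to 1.60 of the first control in the day 6 set, each from few genes, so depth is unknown beyond this and no counting interval is given.

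Of 25493 entries, 293 symbols occur more than once and are represented by their highest entry (by mean). limma 3.58.1 in R 4.3.3 was fitted to log2(FPKM + 1) of 11735 genes in all 7 libraries, with 1 mean per group, an intensity trend, two-sided tests and Benjamini-Hochberg adjustment over all genes. Changes on this scale understate those of low genes. The fit was tested on simulated data. The labels do not tie the numbered controls to columns, so controls are named by set. Members and lists were chosen with earlier results of these data known. One item on a list is not reported here. By rule, named genes are the members, the 3 most abundant genes of each role class, genes past the threshold and the 2 most alike per member. Paralogs, markers and others outside this rule, such as Irf1, Vtn, Colec10, C1qa to C1qc and C3ar1, were chosen after their values were seen. Marker lists for cell types were summed. Sequences are from RefSeq, GRCm38.p6.

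Summed FPKM of the marker lists not given in the report, over all libraries, was 44.0 to 72.0 for lymphatic endothelial, 0.507 to 7.14 for T and NK, 0.0935 to 2.44 for neutrophil, 0.0835 to 3.21 for mesothelial, and 0.307 to 1.06 for glia markers. Trophocyte markers summed to 1090 to 1230 FPKM in controls, 803 and 864 FPKM at day 4, and 1110 and 1810 FPKM at day 6.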

Additional observations from a re-analysis of the deposited data

How the results depend on the processing

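The members' count of 0 past the threshold held under every alternative run except 1: without day 4 knockout replicate 1, C2 passed at day 4, so the count ran from 0 to 1 over the left-out libraries. Fits with 1 library left in a group assume that it varies like the others. Other complement genes past the threshold at day 4 numbered 1 (C6) with a mean of at least 3 FPKM, 1 (C6) with quantile normalization, and 0 to 2 when a library was left out (Cd55b and Cfhr2 without the day 4 set control, C6 and C1qc without day 4 knockout replicate 1). Between the days they numbered 0 to 1 (Cfhr2, without the day 4 set control). Of 406 member values under alternatives, 31 had the other sign. C4b at day 4 was 0.0749 with controls of the same harvest set. With quantile normalization Cfb was -0.0801 at day 6, and between the days Cfb was -0.0495 and Cd59a -0.0202. Leaving out each library, day 4 values ran from -1.75 to 0.490 (C2), -0.935 to 0.439 (C3), -0.216 to 0.0746 (C4b), -0.660 to 0.226 (Cd59a) and -1.19 to 1.05 (Cfb). Day 6 values ran from -0.335 to 0.0361 (Cd59a) and -0.0817 to 0.106 (Cfb). With the days averaged they ran from -1.03 to 0.0900 (C2), -0.386 to 0.301 (C3), -0.0313 to 0.424 (C4b), -0.405 to 0.0384 (Cd59a) and -0.588 to 0.530 (Cfb). Between the days they ran from -0.800 to 1.44 (C2), -0.277 to 1.10 (C3), -0.376 to 0.511 (Cd59a), -1.04 to 1.19 (Cfb) and -0.317 to 0.492 (Masp1). The cause of these shifts was not tested beyond the library named. Serping1 kept its sign in all 4 comparisons under every alternative run, and Masp1 in the 3 against wildtype.

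Over all genes the counts ran from 0 to 472 at day 4 (120 in the report's fit), 0 to 10 at day 6 (5), 0 to 77 with the days averaged (19) and 0 to 83 between the days (0). With the number in the column name as a replicate block, the 4 knockout libraries alone gave 15 genes between the days, 61 without the block (this pair of fits was chosen after seeing the data), and no member passed in either. Deviations of same-numbered libraries did not go together (r = -0.0276 across 11735 genes), and controls carry no number that ties them to knockouts. Depth is unknown, so no limit from counting can be given for Cfd or for other genes listed at 0.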

Other observations

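Complement genes usually made by myeloid cells varied widely between the 2 day 4 knockouts. C1qb and C1qc, chains of C1q, were 80.7 and 50.2 FPKM in day 4 knockout replicate 1, and 3.91 and 2.29 FPKM in day 4 knockout replicate 2. C3ar1, the C3a receptor, was 3.80 FPKM and 0.153 FPKM in these libraries and 0.831 to 1.64 FPKM in controls. Itgam was 2.11 and 4.24 FPKM in the day 6 knockouts, above the 0.643 to 1.09 FPKM of the controls, and 0.271 FPKM in day 4 knockout replicate 2. Summed macrophage and dendritic cell markers were 146 and 247 FPKM at day 6, 106 to 156 FPKM in controls, and 17.4 and 257 FPKM at day 4, and their part in these levels was not tested.

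Vitronectin (Vtn), a soluble regulator of the terminal route, was 0.735 and 0.505 FPKM at day 4 and 1.63, 1.88 and 4.77 FPKM in controls, a log2 change of -1.12 ± 0.34 (SE) that did not pass the threshold (limma, adjusted p = 0.152). Collectin Colec10 was 0.344 to 1.77 FPKM over the 7 libraries with overlapping groups. These genes were chosen after their values were seen.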
